A study of Mus musculus with 29 samples.

Results

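The 36 genes described here act in mitosis, the division of one cell's chromosomes between daughter cells. They were taken from a fixed list of mitotic entry, checkpoint, spindle and cytokinesis genes, found in the count files by their Entrez gene identifiers through a table of mouse symbols. All 36 of 36 were present among the 18834 genes of the files and all 36 were among the 13928 genes tested. RNA was sequenced from sorted megakaryocyte-erythrocyte progenitors (MEPs), the mouse bone marrow cells from which both platelets and red cells descend.

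There were 29 libraries in 6 genotype groups, and every mouse carried the SclCre transgene (also spelled ScleCre in the labels), a Cre recombinase named for the Scl gene of blood progenitors. Without the kinase mutation the groups were Ezh2 +/+ (here called control, n = 5, 3 female and 2 male), Ezh2 +/- (n = 4, 2 female and 2 male) and Ezh2 -/- (n = 4, 3 female and 1 male). The other groups were labelled JAK2V617F (here V617F) and were Ezh2 +/+ (n = 4, 3 female and 1 male), Ezh2 +/- (n = 6, all female) and Ezh2 -/- (n = 6, all female). The labels call the samples replicates and say nothing of separate animals, so a p-value here reflects only how much these samples vary, which may be technical; ages, pooling, the deleted part of Ezh2 and the sort gates are not stated in the labels.

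Mitosis begins when Cdk1, bound to the cyclins encoded by Ccna2, Ccnb1 and Ccnb2, is freed of inhibitory phosphate by the Cdc25 phosphatases, with Aurka and Plk1 as further entry kinases. The spindle assembly checkpoint (Bub1, Bub1b, Bub3, Mad2l1, Ttk) then holds back the anaphase-promoting complex until every chromosome is attached, after which Cdc20 and Ube2c drive the destruction of securin (Pttg1) and separase (Espl1) opens the cohesin rings. In bone marrow, erythroid progenitors divide rapidly, while megakaryocytes copy their DNA again and again without completing division. EZH2 is the methyltransferase of Polycomb repressive complex 2, and JAK2 V617F switches the JAK2 kinase on and is found in myeloproliferative neoplasms.

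Many mitotic genes share promoter elements: the cell cycle genes homology region (CHR), bound by the MuvB core of the DREAM and B-MYB complexes, and the CCAAT box, bound by NF-Y. RefSeq promoter windows of assembly GRCm38.p6, running from 250 bases before to 50 after the annotated start, were matched for 30 of the 36 genes. The genes without one were Aurkb, Ccna2, Cdc25c, Incenp, Kif20a and Tpx2. The windows were searched on both strands for TTTGAA and TTCGAA as the CHR and for CCAAT. A CHR and a CCAAT match shared 1 base in Cdca8 and none in the other members. The 150 bases around the start are printed for some of the members on which the results below turn, for Kif11 as a compact example of the usual layout, and for Pttg1, whose counts ran against the rest. The windows were Top2a at chr11:99024140-99024289 (minus strand), Cdk1 at chr10:69352863-69353012 (minus), Cdc20 at chr4:118437294-118437443 (minus), Racgap1 at chr15:99651607-99651756 (minus), Cdc25b at chr2:131186848-131186997 (plus), Ube2c at chr2:164769829-164769978 (plus), Kif11 at chr19:37376282-37376431 (plus) and Pttg1 at chr11:43425932-43426081 (minus). Each is written 5′ to 3′ along its gene, and capitals mark the motif matches, which read TTCAAA or ATTGG where they lie on the other strand.
Top2a: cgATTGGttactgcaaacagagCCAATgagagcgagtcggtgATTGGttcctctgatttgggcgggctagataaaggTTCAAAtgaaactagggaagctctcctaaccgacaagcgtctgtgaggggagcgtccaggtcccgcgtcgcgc
Cdk1: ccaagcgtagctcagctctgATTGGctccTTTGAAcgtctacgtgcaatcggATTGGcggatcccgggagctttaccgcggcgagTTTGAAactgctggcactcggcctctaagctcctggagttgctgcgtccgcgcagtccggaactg
Cdc20: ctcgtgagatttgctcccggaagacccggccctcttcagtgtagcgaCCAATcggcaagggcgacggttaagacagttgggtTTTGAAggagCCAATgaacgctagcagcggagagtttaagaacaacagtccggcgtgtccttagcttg
Racgap1: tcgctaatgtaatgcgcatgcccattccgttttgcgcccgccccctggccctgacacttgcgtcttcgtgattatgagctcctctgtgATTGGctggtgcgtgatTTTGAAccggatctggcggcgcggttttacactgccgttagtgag
Cdc25b: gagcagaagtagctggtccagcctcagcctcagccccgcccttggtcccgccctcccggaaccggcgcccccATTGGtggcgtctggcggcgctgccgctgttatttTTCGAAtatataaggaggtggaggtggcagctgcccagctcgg
Ube2c: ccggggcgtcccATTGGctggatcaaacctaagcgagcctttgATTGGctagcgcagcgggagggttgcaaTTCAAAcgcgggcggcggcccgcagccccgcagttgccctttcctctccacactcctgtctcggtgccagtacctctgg
Kif11: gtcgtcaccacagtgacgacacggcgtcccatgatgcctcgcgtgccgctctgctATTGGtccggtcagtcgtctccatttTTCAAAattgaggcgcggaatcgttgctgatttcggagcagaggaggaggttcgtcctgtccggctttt
Pttg1: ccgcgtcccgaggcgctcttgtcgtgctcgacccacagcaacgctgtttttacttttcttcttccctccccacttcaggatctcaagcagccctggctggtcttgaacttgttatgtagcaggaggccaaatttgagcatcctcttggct

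A CHR match lay in the window of 24 of the 30 mitosis genes (80.0%), against 21.7% of the 27025 genes with a window and 16.8% of the 10952 tested genes with a window. CCAAT lay in 24 of 30 (80.0%), against 41.1% of all and 42.9% of tested genes. Both lay in 22 of 30 (73.3%), against 8.61% and 7.09%. The CHR match was close to the start in most of them: 22 of 30 (73.3%) held one within 50 bases of it, against 6.12% of all genes. Mad2l1, Birc5, Nusap1 and Pttg1 held neither motif in the window. Mad2l1, Birc5 and Nusap1 were among the genes called higher in Ezh2 -/- below, and Pttg1 was not. A match is a description of the letters, and a window without one says nothing about what binds there.

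**Figure D1:**
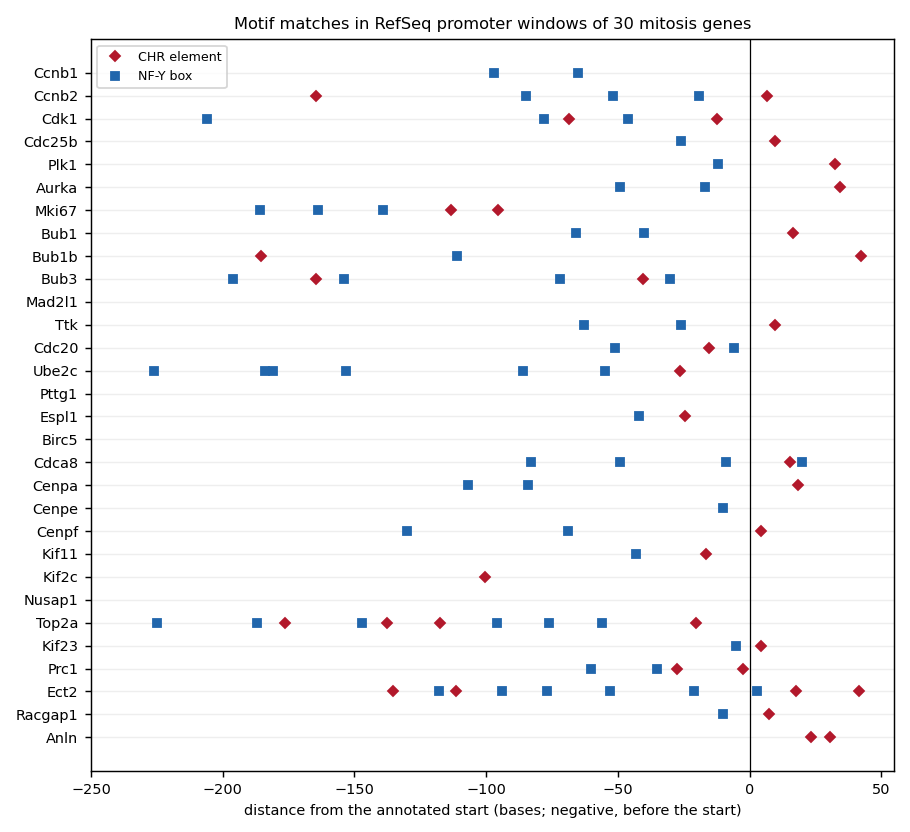
Positions of CHR matches (red diamonds) and CCAAT matches (blue squares) in the promoter windows of the 30 matched mitosis genes, in bases from the annotated start (negative, before it; vertical line, the start). 22 genes hold a CHR match within 50 bases of the start, and Mad2l1, Birc5, Nusap1 and Pttg1 have no match.

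Libraries held 31.6 to 59.4 M counts (median 44.6 M), of which the mitosis genes took 0.546 to 0.746%. Ezh2 RNA followed the labels, with 303 ± 20 CPM (counts scaled to a common library size; mean ± SD) in controls, 192.5 ± 4.28 in Ezh2 +/- and 73.4 ± 5.89 in Ezh2 -/-, and with 289 ± 31.2, 174 ± 23.2 and 55 ± 3.10 in the same order with V617F. The erythroid markers were present in every library, with no marker of the 20 at 0 in any of them and a sum of 6675 to 12782 CPM. Of the 20 megakaryocyte and platelet markers, Gp6 was at 0 in 14 libraries and the sum ran from 170.2 to 2099 CPM. Control replicate 5 and Ezh2 +/- replicates 2 and 5 stood apart from the other libraries without V617F by their 14 granulocyte markers, which summed to 341, 341 and 221 CPM against 22.4 to 105 CPM in the others. Results that rest on them are given below with and without them.

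Per length, Mki67, the Ki-67 antigen gene, was the most abundant mitosis gene in controls at 154 RPKM (CPM per kilobase of the deposited gene length), followed by the centromeric histone gene Cenpa at 148 and topoisomerase II alpha (Top2a) at 138. The mitotic cyclin gene Ccna2 stood at 113 RPKM and the ubiquitin-conjugating enzyme gene Ube2c at 94.0 RPKM. The lowest were the phosphatase gene Cdc25b at 9.91, the kinetochore gene Cenpf at 10.7, Cdc25c at 11.3 and Pttg1 at 12 RPKM. Libraries of one group differed least in Pttg1, Racgap1 and Top2a, whose median coefficients of variation over the 6 groups were 5.81, 6.29 and 6.92%. They differed most in Plk1 (17.8%), Ccnb1 (17.6%) and Ube2c (15.3%), all genes whose RNA peaks late in the cycle.

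The mean of Ezh2 -/- without V617F was the highest of the 6 group means for 32 of the 36 genes. The lowest mean was that of the controls for 18 genes and that of V617F Ezh2 -/- for 12. Summed over all 36 genes, the level was 5361 to 6936 CPM in controls, 6163 to 7162 in Ezh2 +/- and 7337 to 7749 in Ezh2 -/-. With V617F it was 5621 to 6924 CPM in Ezh2 +/+, 5365 to 7358 in Ezh2 +/- and 5649 to 7095 in Ezh2 -/-. The Ezh2 -/- libraries without V617F thus lay above all libraries of every other group except V617F Ezh2 +/-. The highest library of that group, at 7358 CPM, lay within the Ezh2 -/- range. In bulk RNA, a larger share of dividing cells and more RNA of these genes per cell cannot be told apart.

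**Figure D2:**
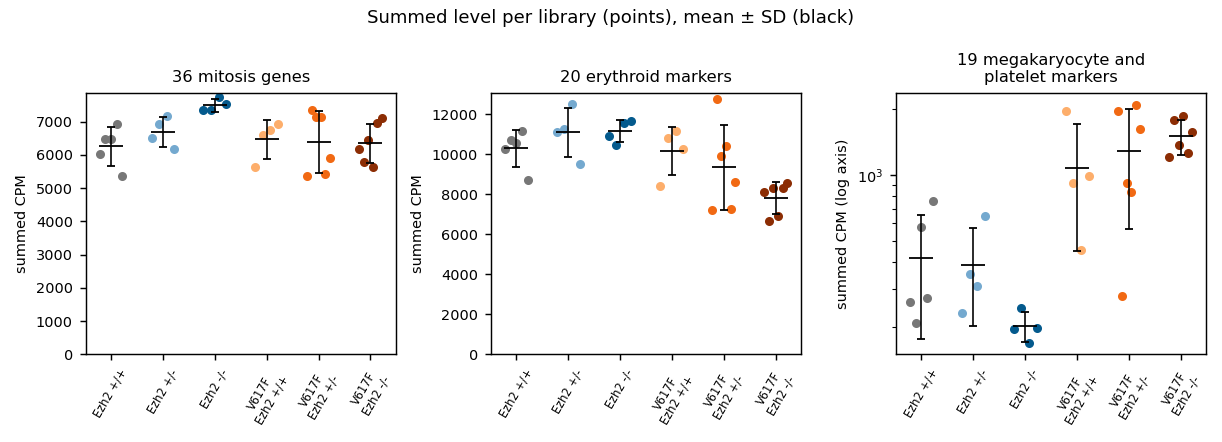
Summed CPM per library (points; black, mean ± SD) of the 36 mitosis genes, 20 erythroid markers and 19 tested megakaryocyte and platelet markers in the 6 genotype groups; the third axis is logarithmic. The 4 Ezh2 -/- libraries without V617F reach 7337 to 7749 CPM of mitosis genes, and V617F Ezh2 -/- libraries hold 6675 to 8579 CPM of erythroid and 1203 to 1866 CPM of megakaryocyte and platelet markers.

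The first comparison asked what loss of Ezh2 did to these genes without V617F. In Ezh2 -/- MEPs, 14 of the 36 mitosis genes were higher than in controls and none was lower, by the quasi-likelihood test of edgeR, with p adjusted by the Benjamini-Hochberg method over all genes tested. Among all tested genes 11.5% were higher and 12.2% lower. The median log2 fold change of the 36 was 0.25, against -0.01 over all genes, and 35 of the 36 fold changes were positive. For 17 mitosis genes every Ezh2 -/- library lay above every control, against 11.5% of all genes, and for 1, Pttg1, every library lay below, against 11.2%. Changes were 1.21-fold to 1.45-fold in size.

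By role, 5 of 9 genes of the entry group were higher: Aurka (log2 0.49), Ccna2 (0.47), Cdk1 (0.43), Plk1 (0.52) and Ccnb1 (0.46). The proliferation marker Mki67 was counted in that group and was not called. Of 9 checkpoint and anaphase genes, Ube2c (0.53), Cdc20 (0.41) and Mad2l1 (0.28) were higher. Of 7 centromere and chromosomal passenger genes, Birc5 (survivin, 0.41), Cenpf (0.35) and Aurkb (0.32) were higher. Of 5 spindle and chromosome structure genes, Top2a (0.29) and Nusap1, a spindle-stabilising protein (0.28), were higher. Of 6 cytokinesis genes, Racgap1 (0.48) was higher, with the lowest adjusted p of the 36 (3.2e-05). The other 22 lay between -0.17 (Pttg1) and 0.29 (Kif20a).

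**Figure D3:**
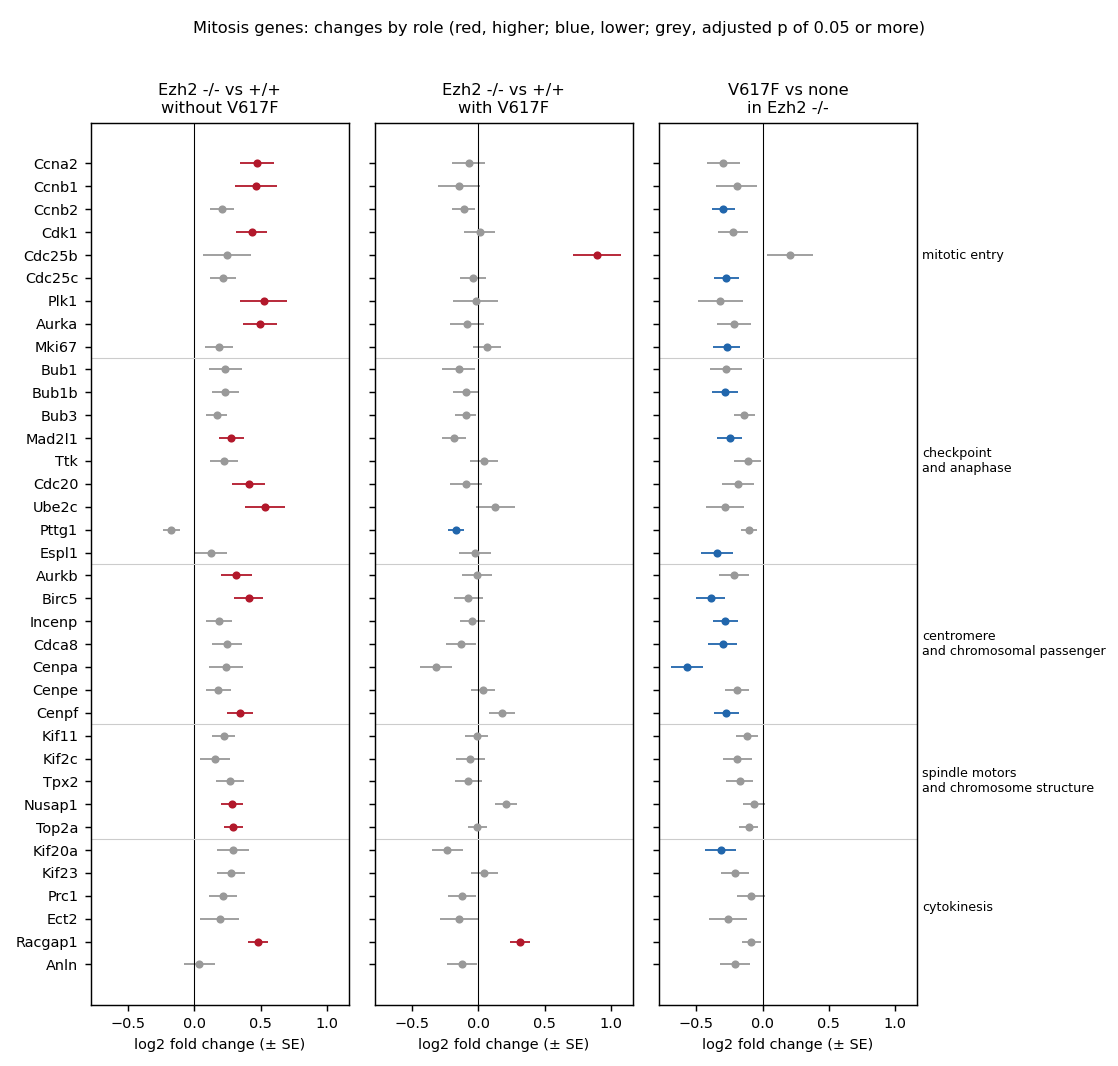
Log2 fold change ± SE of each mitosis gene, grouped by role, in 3 comparisons: Ezh2 -/- against +/+ without V617F, the same with V617F, and V617F against none in Ezh2 -/- (red, higher; blue, lower; grey, adjusted p of 0.05 or more). In the first panel 14 genes are red and Pttg1 alone lies below 0, in the second Cdc25b stands at 0.90, and in the third 12 genes are blue.

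Racgap1, a GTPase-activating protein of the centralspindlin complex that sets the cleavage plane, measured 92.6, 103, 104, 109.6 and 92.3 CPM in the 5 controls and 135, 137, 146 and 141 CPM in the 4 Ezh2 -/- libraries. The Ezh2 +/- libraries, at 104, 108, 112 and 99.9 CPM, overlapped the controls. With V617F, Racgap1 measured 100.01, 103, 109.8 and 111 CPM in Ezh2 +/+, 96.6 to 124 CPM (median 116) in Ezh2 +/- and 118 to 150.2 CPM (median 126) in Ezh2 -/-. Ezh2 -/- libraries lay above all Ezh2 +/+ libraries of the same V617F status both times. The change was 0.48 ± 0.08 without V617F and 0.31 ± 0.07 with it (adjusted p = 3.2e-05 and 0.0036), and the difference between these changes, -0.17 ± 0.10, had an adjusted p of 0.23. Racgap1 kept its call in all 17 alternatives run without V617F and all 18 with V617F.

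Top2a, which untangles DNA before segregation, measured 683, 735, 713, 817 and 659 CPM in controls and 880.4, 884, 888 and 891 CPM in Ezh2 -/-. The 4 Ezh2 -/- libraries had a coefficient of variation of 0.504% and none overlapped a control. Of the Ezh2 +/- libraries, those at 766, 810.3 and 765 CPM lay within the control range, and the one at 843 CPM lay above it and below Ezh2 -/-. Top2a rose by 0.29 ± 0.07 (adjusted p = 0.0044). With V617F the Ezh2 +/+ libraries stood at 754, 883, 829.5 and 848 CPM, Ezh2 +/- at 721 to 917 CPM (median 796) and Ezh2 -/- at 734 to 909 CPM (median 843), and these groups overlapped.

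Aurka, the centrosomal Aurora kinase gene, measured 53.6, 60.2, 56.4, 57.8 and 45.2 CPM in controls, 58.1, 71.6, 75.7 and 52.4 in Ezh2 +/- and 76.4, 69.4, 83.2 and 75.9 in Ezh2 -/-. All Ezh2 -/- libraries were above all controls, and the Ezh2 +/- libraries spanned both. Aurka was 1.41-fold higher in Ezh2 -/- (log2 0.49 ± 0.13, adjusted p = 0.0076). With V617F it stood at 55.6, 67.7, 74 and 82.5 CPM in Ezh2 +/+, 52.9 to 82.9 (median 68.8) in Ezh2 +/- and 55 to 72.7 (median 65.9) in Ezh2 -/-.

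Cdk1, the mitotic kinase gene itself, measured 108, 130.4, 127, 157 and 108 CPM in controls against 165, 151, 197 and 170.3 CPM in Ezh2 -/-. The ranges met, because control replicate 4 lay above Ezh2 -/- replicate 2, and the change was 0.43 ± 0.12 (adjusted p = 0.0088). Its cyclin partner Ccnb1 measured 78.1, 88.5, 95.1, 114 and 69.2 CPM in controls and 113, 109, 142 and 124 CPM in Ezh2 -/-. The Ccnb1 ranges also met, and its call (0.46 ± 0.16, adjusted p = 0.037) was lost in 8 of 17 alternatives. The Ki-67 gene, Mki67, measured 1546, 1594, 1656, 1603 and 1380.2 CPM in controls and 1762, 1868, 1686 and 1744 CPM in Ezh2 -/-. Mki67 groups did not overlap, but its change of 0.18 ± 0.11 did not pass the test (adjusted p = 0.21).

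Ube2c, which extends ubiquitin chains for the anaphase-promoting complex, measured 78.8, 89.6, 85.3, 114 and 70.3 CPM in controls and 123, 112, 150.5 and 121 CPM in Ezh2 -/-. Cdc20, the activator of that complex, measured 102, 121, 109.8, 125 and 87.8 CPM in controls and 133, 128, 162 and 148 CPM in Ezh2 -/-. Cdc20 groups were separate, while for Ube2c control replicate 4 reached into the Ezh2 -/- range. The Ube2c change of 0.53 ± 0.15 (adjusted p = 0.011) was the highest of the 36 and that of Cdc20 was 0.41 ± 0.12 (adjusted p = 0.018). Birc5, the survivin subunit of the chromosomal passenger complex, measured 97.9, 109, 106, 121 and 92.4 CPM in controls and 134, 128, 157 and 138 CPM in Ezh2 -/-, with no overlap (0.41 ± 0.11, adjusted p = 0.0094). Nusap1 measured 77.8, 80.2, 92.5, 102 and 79.2 CPM in controls and 97.8, 102, 115 and 109 CPM in Ezh2 -/-, ranges that overlapped slightly (0.28 ± 0.08, adjusted p = 0.016).

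Pttg1, the securin gene, was the exception among the 36. It measured 21, 22.6, 19.4, 22.1 and 19.7 CPM in controls, 20.6, 20.4, 24.6 and 19 CPM in Ezh2 +/- and 19, 17.9, 18.4 and 18.2 CPM in Ezh2 -/-. Every Ezh2 -/- library lay below every control, and the change of -0.17 ± 0.06 had an adjusted p of 0.052. With V617F it measured 18.6, 19.2, 19.8 and 19.3 CPM in Ezh2 +/+, 17.5 to 19.7 CPM (median 18.2) in Ezh2 +/- and 15.4 to 18.9 CPM (median 16.5) in Ezh2 -/-. There the change was also -0.17 ± 0.06 and passed (adjusted p = 0.047), although 1 Ezh2 -/- library overlapped the Ezh2 +/+ range and 12 of 18 alternatives ended the call.

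**Figure D4:**
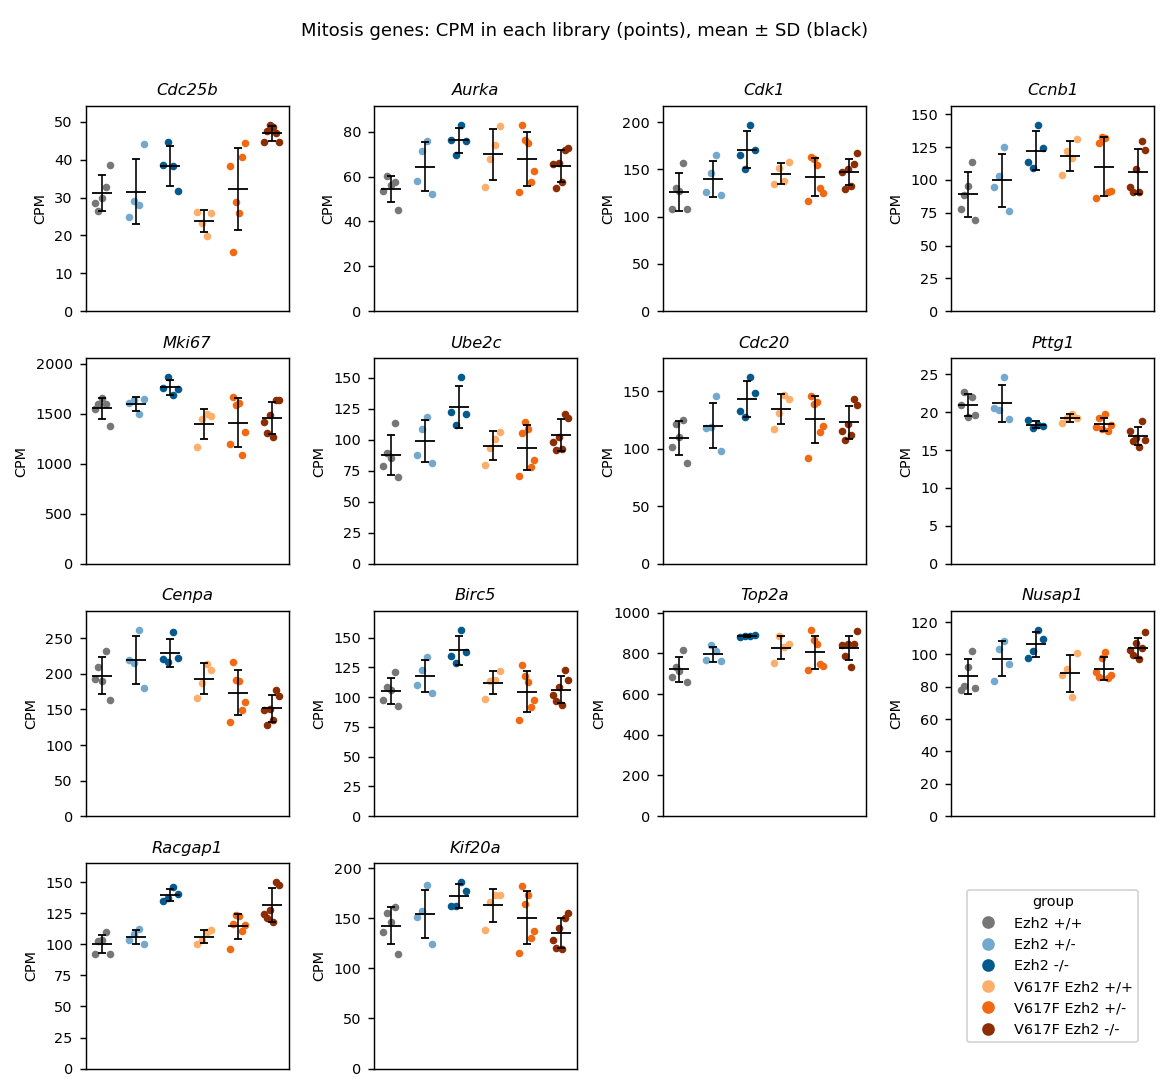
CPM of 14 mitosis genes in each library (points; black, mean ± SD) of the 6 genotype groups, with all axes from 0. Racgap1 in Ezh2 -/- (135 to 146 CPM) stands above controls (92.3 to 109.6 CPM), Cdc25b in V617F Ezh2 -/- (44.6 to 49.3 CPM) above V617F Ezh2 +/+ (20 to 26.2 CPM), and Pttg1 in Ezh2 -/- (17.9 to 19 CPM) below controls (19.4 to 22.6 CPM).

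The number of mitosis genes called higher in Ezh2 -/- depended on the libraries used. In female libraries alone 1 gene, Racgap1, was called (0.45, adjusted p = 0.0033), a smaller share than the 887 of all 14181 genes. There 35 of 36 fold changes were still positive, with a median of 0.24 and 13 genes at an unadjusted p under 0.05. There were 9 calls without control replicate 5 and Ezh2 +/- replicates 2 and 5, and also 9 without control replicate 1 or without Ezh2 -/- replicate 3. Of all genes, 1345 of 14162, 1260 of 13919 and 1281 of 14060 were higher in these settings, smaller shares than 9 of 36. Cell type marker genes also differed between these groups, and most of those called were lower in Ezh2 -/-. Of the 19 megakaryocyte and platelet markers tested, 0 were higher and 6 lower in Ezh2 -/- (median -1.05), and their sum was 170.2 to 246 CPM against 209 to 756 CPM in controls. Of the 12 monocyte, macrophage and dendritic markers 5 were lower (68 to 103 CPM against 159 to 470.3), while of the 20 erythroid markers 2 were higher and 2 lower (median 0.19, 10489 to 11688 CPM against 8742 to 11184). Lymphoid markers were lower in 6 of 17, stem and multipotent progenitor markers in 5 of 12 (1 higher), mast cell and basophil markers in 3 of 7 tested, and no granulocyte marker of 14 was called. The part of these cells in the mitosis gene result was not tested.

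With a single Ezh2 allele lost, no mitosis gene was called in either direction. In Ezh2 +/- against control 0.00718% of all genes were called higher and 0.00718% lower, 35 of 36 mitosis genes had a positive fold change, the median was 0.10, and 1 gene, Nusap1, had an unadjusted p under 0.05. DESeq2 also called 0. The fold changes ran from -0.01 (Espl1) to 0.23 (Aurka). Without control replicate 5 and Ezh2 +/- replicates 2 and 5 there were again 0 calls, and 31 changes were positive and 5 negative with a median of 0.13. Leaving out control replicate 5 alone gave 27 positive and 9 negative (median 0.06), leaving out Ezh2 +/- replicate 4 gave 31 and 5 (median 0.05), and female libraries gave 28 and 8 (median 0.04). In V617F Ezh2 +/- against V617F Ezh2 +/+ all genes were called higher in 0% and lower in 0.00718%, and the mitosis genes ran from -0.12 (Cenpa) to 0.35 (Cdc25b) with a median of -0.02, 0 at an unadjusted p under 0.05 and 0 by DESeq2.

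With V617F, loss of both Ezh2 alleles left most mitosis genes within the spread of the libraries. Against V617F Ezh2 +/+, 2 of 36 were higher in V617F Ezh2 -/- (Cdc25b and Racgap1) and 1 was lower (Pttg1), while 13% of all genes were higher and 13.6% lower. The mitosis genes' shares were thus below those of all genes. Their median change was -0.07 against 0.00 for all genes, and the 33 others lay between -0.32 (Cenpa) and 0.21 (Nusap1). Of the markers, 0 of 19 megakaryocyte and platelet, 0 of 14 granulocyte and 1 of 20 erythroid genes were higher, 2 erythroid genes were lower, 7 of 17 lymphoid genes were higher and 1 was lower, and 1 of 5 tested stromal and endothelial genes was higher.

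Cdc25b, one of the phosphatases that activate Cdk1, measured 28.6, 26.5, 29.8, 32.7 and 38.5 CPM in controls, 25, 29.1, 27.9 and 44.1 CPM in Ezh2 +/- and 38.6, 44.8, 38.5 and 31.8 CPM in Ezh2 -/-. With V617F it measured 26.2, 23.3, 20 and 26 CPM in Ezh2 +/+, 15.6 to 44.5 CPM (median 33.5) in Ezh2 +/- and 44.6 to 49.3 CPM (median 47.3) in Ezh2 -/-. The V617F Ezh2 -/- libraries lay above every V617F Ezh2 +/+ library, and their coefficient of variation was 4.11%. Cdc25b was 1.86-fold higher there (log2 0.90 ± 0.18, adjusted p = 0.00081), the largest change of any mitosis gene in the Ezh2 comparisons, and it passed in all 18 alternatives. Without V617F its change was 0.24 ± 0.18 (adjusted p = 0.33), and the difference between the changes, 0.65 ± 0.25, had an adjusted p of 0.063.

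Cdc25b also differed from the other members in which libraries were high. It was highest of its group in control replicate 5, in Ezh2 +/- replicate 5 and in V617F replicate 1 (38.5, 44.1 and 26.2 CPM), and high in V617F Ezh2 +/- replicates 1, 5 and 6 (38.3, 40.7 and 44.5 CPM). V617F replicate 4 came close to replicate 1 at 26 CPM, and it was highest of its group for 22 of the 36 genes. In control replicate 5, 32 of the 36 mitosis genes were at their group's lowest, and in Ezh2 +/- replicate 5, 31 of 36. V617F replicate 1 was lowest for 34 of 36, and V617F Ezh2 +/- replicates 1 and 5 were lowest for 22 and 13. These 5 libraries had low erythroid and high megakaryocyte marker sums for their groups: control replicate 5 held 8742 CPM of erythroid markers against 10295 to 11184 CPM in the other controls and 756 CPM of megakaryocyte and platelet markers against 209 to 578 CPM. Ezh2 +/- replicate 5 held 9535 and 649.5 CPM against 11128 to 12520 and 233 to 350.0 CPM in its group. In V617F replicate 1 the sums were 8440 and 1955 CPM, in V617F Ezh2 +/- replicate 1 they were 7200 and 1961 CPM, and in replicate 5 of that group 7275 and 2099 CPM. V617F Ezh2 +/- replicate 6, where Cdc25b was also high, was lowest for 0 of 36 mitosis genes and held 8601 and 1620.5 CPM. What these cells contribute to the mitosis gene levels was not tested.

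V617F itself was compared with its absence in each Ezh2 genotype. In Ezh2 +/+, 2 of 36 mitosis genes were higher with V617F and 0 lower, against 9.73% and 13.9% of all genes. They were Aurka (0.37 ± 0.13, adjusted p = 0.043) and Top2a (0.20 ± 0.07, adjusted p = 0.049), and for each the groups overlapped. No mitosis gene was called without control replicate 5 and Ezh2 +/- replicates 2 and 5, in female libraries alone, without control replicate 1 or 3, without V617F replicate 3, or without control replicate 5 alone. There were 6 calls without control replicate 4, 3 without V617F replicate 1, and 1 without control replicate 2 or without V617F replicate 2 or 4. Over all genes, 723 were higher in female libraries and 982 to 1405 with single libraries left out. The remaining 34 ran from -0.44 (Cdc25b, every V617F library below every control) to 0.42 (Ccnb1). Here 11 of 19 megakaryocyte and platelet markers (452 to 1955 CPM against 209 to 756) and 11 of 14 granulocyte markers (674 to 1198 CPM against 50 to 341) were higher. Of the monocyte, macrophage and dendritic markers 9 of 12 were lower (median -2.15), as were 9 of 17 lymphoid markers (median -1.91). Of 12 stem and multipotent progenitor markers 3 were higher and 1 lower, of 20 erythroid markers 1 was higher and 1 lower, and 2 of 5 tested stromal and endothelial markers were higher. The part of these cells was not tested.

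In Ezh2 +/- no mitosis gene was called with V617F, against 3.35% of all genes higher and 6.51% lower. Of the 36 changes 18 were positive and 18 negative, the median was 0.00 and 3 genes, Ccnb2, Pttg1 and Cenpa, had an unadjusted p under 0.05. DESeq2 called 0. The lowest was Cenpa at -0.27 and the highest Ccnb1 at 0.16. The even split moved with the libraries used: without Ezh2 +/- replicate 5 alone, 7 changes were positive and 29 negative (median -0.07). Without control replicate 5 and Ezh2 +/- replicates 2 and 5, 6 were positive and 30 negative (median -0.09) with 0 calls, while over all genes 65 were higher and 29 lower.

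In Ezh2 -/- MEPs V617F went with lower mitosis genes. Of the 36, 12 were lower and 0 higher than without V617F, against 22.5% and 19.1% of all genes. For 13 genes every V617F Ezh2 -/- library lay below every Ezh2 -/- library, against 18.8% of all genes. The median was -0.22 against -0.03 for all genes, and 35 of 36 changes were negative, with Cdc25b at 0.21 the exception. By role, 5 of 7 centromere and chromosomal passenger genes fell: Cenpa (-0.57), Birc5 (-0.39), Cdca8 (borealin, -0.30), Incenp (-0.28) and Cenpf (-0.27). Of the checkpoint and anaphase genes, Espl1 (-0.34), Bub1b (-0.28) and Mad2l1 (-0.25) fell, 3 of 9. In the entry group, where the proliferation marker Mki67 was placed, Ccnb2 (-0.30), Cdc25c (-0.27) and Mki67 (-0.27) fell, also 3 of 9. Kif20a, a kinesin of the central spindle, was the 1 of 6 cytokinesis genes that fell (-0.32), and 0 of 5 spindle motor and chromosome structure genes did.

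Cenpa, the histone H3 variant that marks the centromere, measured 220.3, 216, 258 and 223 CPM in Ezh2 -/- and 128 to 178 CPM (median 149.6) in V617F Ezh2 -/-. These groups did not overlap, and Cenpa fell by 0.57 on the log2 scale (SE 0.12, adjusted p = 0.0014), the largest fall of the 36. In controls it measured 193, 210.3, 189, 232 and 163 CPM, in Ezh2 +/- 219.9, 216, 262 and 180.4 CPM, in V617F Ezh2 +/+ 166, 188, 214 and 206 CPM and in V617F Ezh2 +/- 132 to 216 CPM (median 176). Cenpa passed in all 18 alternatives. The other calls with lower p-values were Birc5, at 93.0 to 123 CPM (median 105) in V617F Ezh2 -/- and below all Ezh2 -/- libraries (adjusted p = 0.0079), and Ccnb2, with a mean of 123 CPM against 151 CPM (adjusted p = 0.010), and each was lost in 1 of 18 alternatives.

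Mki67 fell from 1686 to 1868 CPM in Ezh2 -/- to 1265 to 1640 CPM (median 1455) in V617F Ezh2 -/-, with no overlap (-0.27 ± 0.10, adjusted p = 0.036). Kif20a measured 163, 162, 186 and 177 CPM against 119 to 155 CPM (median 134), again with no overlap (-0.32 ± 0.12, adjusted p = 0.036). The Mki67 call was lost in 11 of 18 alternatives and the Kif20a call in 8 of 18. In contrast, the V617F Ezh2 -/- libraries overlapped Ezh2 -/- for Cdk1 (129 to 168 CPM, median 149), Ccnb1 (90.6 to 129.5 CPM, median 101), Cdc20 (107 to 143 CPM, median 118), Ube2c (91.4 to 121 CPM, median 99.96) and Nusap1 (97 to 114 CPM, median 103). None of these 5 was called.

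The count of 12 moved with the libraries. It was 6 in female libraries, against 2300 of all 14181 genes lower. Without Ezh2 -/- replicate 1 it was 5 (2141 of 14055), and without replicate 3 it was 1 (1605 of 14060). Without V617F Ezh2 -/- replicates 1, 2, 3 and 4 it was 7, 4, 7 and 3. All genes were then lower in 2814 of 13912, 2036 of 13877, 2424 of 13886 and 2083 of 13886. In these settings the mitosis genes' share was near or below that of all genes. Leaving out any other single library of these groups gave 9 to 14. When these 2 groups alone were fitted, 20 were called, against 3160 of 13571 genes. Marker genes shifted strongly between the same groups. With V617F, 12 of 20 erythroid markers were lower (median -0.44, 6675 to 8579 CPM against 10489 to 11688), all 19 tested megakaryocyte and platelet markers were higher (median 2.69, 1203 to 1866 CPM against 170.2 to 246) and all 14 granulocyte markers were higher (median 3.57, 133 to 1358 CPM against 22.4 to 88.9). Of 12 stem and multipotent progenitor markers 8 were higher and 1 lower (median 1.65), and of 7 tested mast cell and basophil markers 6 were higher (median 2.11). Monocyte, macrophage and dendritic markers were higher in 1 and lower in 3 of 12, lymphoid markers higher in 2 and lower in 4 of 17, and stromal and endothelial markers higher in 3 of 5 tested. The part of these cells in the fall of the mitosis genes was not tested.

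The interaction term asked whether the Ezh2 -/- change differed with V617F. It was negative and passed for 8 of 36 mitosis genes and positive for 0, against 10.6% and 8.47% of all genes, with a median of -0.32 against 0.03. The 8 were Mad2l1 (-0.46, adjusted p = 0.024), Aurka (-0.58, 0.032), Cenpa (-0.56, 0.033), Birc5 (-0.49, 0.034), Kif20a (-0.52, 0.035), Ccna2 (-0.55, 0.036), Top2a (-0.30, 0.039) and Cdc20 (-0.50, 0.042). For Aurka the log2 change between Ezh2 -/- and Ezh2 +/+ was 0.49 without V617F and -0.09 with it, and for Top2a it was 0.29 and -0.01. Of the remaining 28, Ccnb1 was lowest at -0.61 (adjusted p = 0.053) and Cdc25b highest at 0.65. The interaction with Ezh2 +/- was called for 0 mitosis genes by edgeR and 0 by DESeq2, with 0 at an unadjusted p under 0.05, against 0% of all genes in each direction. Without control replicate 5 and Ezh2 +/- replicates 2 and 5 it was also called for 0, and 5 of the 36 were positive and 31 negative (median -0.14).

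The 8 interaction calls rested on many single libraries. In female libraries 0 passed and with control replicate 5 and Ezh2 +/- replicates 2 and 5 left out together 1 passed. Leaving out control replicates 1, 4 or 5 gave 0, 14 or 1 calls, Ezh2 -/- replicates 1 or 3 gave 4 or 0, V617F replicates 1, 2, 3 or 4 gave 17, 4, 1 or 1, and V617F Ezh2 -/- replicates 2 or 4 gave 1 or 3. Mad2l1, which inhibits Cdc20 at unattached kinetochores, kept its call in 24 of 27 alternatives and Cdc20 in 13 of 27.

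**Figure D5:**
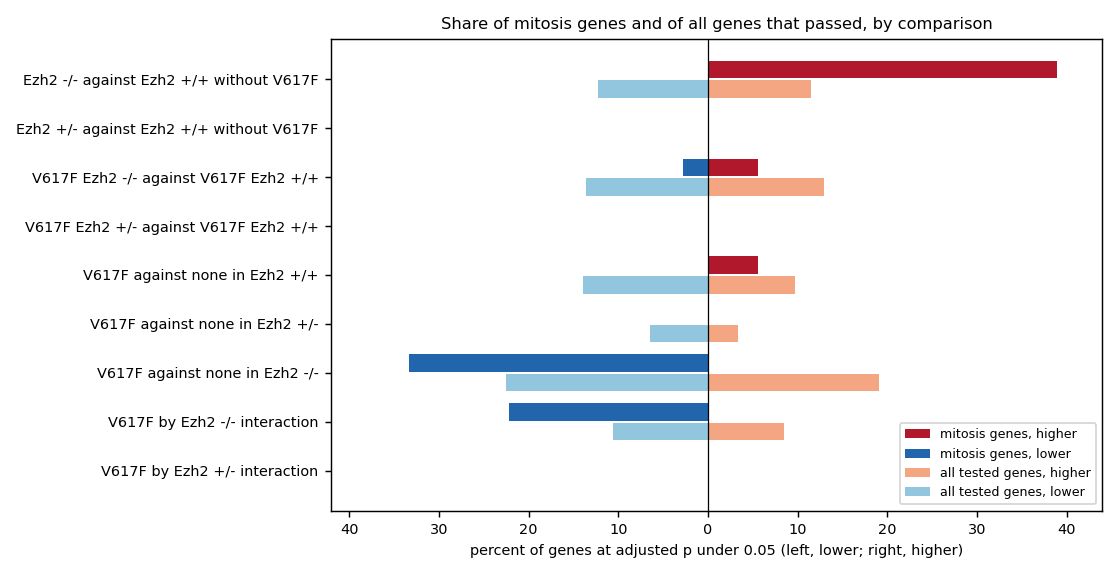
Share of the 36 mitosis genes (dark bars) and of all 13928 tested genes (light bars) that were higher (right) or lower (left) at an adjusted p under 0.05 in each of 9 comparisons. Mitosis genes reach 38.9% higher for Ezh2 -/- without V617F against 11.5% of all genes, and 33.3% lower for V617F in Ezh2 -/- against 22.5%.

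Other genes of the division machinery were followed through fixed lists that share no gene with the 36; their counts stand beside 11.5% of all genes higher and 12.2% lower in the first comparison. In Ezh2 -/- against control, 9 of 38 further kinetochore and centromere genes were higher, among them the Ndc80 complex gene Spc25 (0.41), and 1, the Cenpa chaperone gene Hjurp (-0.21), was lower. Of 43 further spindle and cytokinesis genes 9 were higher, such as Haus8 (0.36) and the tubulin genes Tuba1b (0.42) and Tubb5 (0.32), and 2 were lower, Ndel1 (-0.19) and Nek9 (-0.20). Of 34 entry kinases, phosphatases and transcription factors 8 were higher, led by E2f7, an E2F repressor (0.95), Melk (0.62) and Pbk (0.36), and Plk3 was lower (-0.54). Of 19 condensin, cohesin and separation genes 2 were higher, Rad21 (0.22) and Stag1 (0.18), near the share of all genes. Of 17 anaphase-promoting complex genes and regulators 2 were higher, Fbxo5, which encodes the inhibitor Emi1 (0.40), and Anapc15 (0.29), also near that share. Of 34 DNA replication genes 12 were higher, such as Rrm2 (0.52) and Pcna (0.35), and 1 lower. List medians of 0.07 to 0.17 were smaller than the 0.25 of the mitosis genes.

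For V617F in Ezh2 -/-, 22.5% of all genes were lower and 19.1% higher. DNA replication genes were lower in 28 of 34 (median -0.30), among them Rfc3 (-0.37) and Mcm5 (-0.37), and further kinetochore genes in 21 of 38, among them Pmf1 (-0.45). Further spindle and cytokinesis genes were lower in 16 of 43 and higher in 2 (Tuba1b -0.42, Stil -0.39, Haus8 -0.35, and Pimreg 1.18 and Ckap2l 0.23 higher), entry regulators in 14 of 34 and higher in 1 (E2f2 -0.58, E2f5 0.26). Condensin and cohesin genes were lower in 6 of 19 and anaphase-promoting complex genes in 6 of 17. In V617F Ezh2 -/- against V617F Ezh2 +/+, where 13.6% of all genes were lower and 13% higher, 8 of 17 anaphase-promoting complex genes were lower, led by Anapc4 (-0.36), as were 8 of 34 DNA replication genes, led by Orc1 (-0.44), while E2f7 was higher (0.69).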

How the data were processed

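MEP RNA was sequenced from 230,000 sorted cells per library, per the labels' protocols, and aligned to mouse build mm9 with STAR, per the submitters' processing notes. Neither labels nor files state the annotation, counting program or strand setting, so reads of overlapping or antisense genes may not be told apart. The deposited values are raw counts per Entrez gene, with a gene length in bases beside them. Symbols came from a RefSeq table of assembly GRCm38.p6, which named 18772 of 18834 genes; the unnamed ones, 0.88 to 2.68% of the counts per library, were kept. No member shared identical counts with another gene.

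Genes were filtered with filterByExpr (minimum count 10, minimum total 15) in edgeR 4.0.16 under R 4.3.3, leaving 13928, and scaled by TMM (factors 0.950 to 1.093). A single robust quasi-likelihood fit covered all 29 libraries, with 6 group terms and the labelled sex (22 residual degrees of freedom, biological coefficient of variation 18.1%). Tests were two-sided with Benjamini-Hochberg adjustment over all tested genes, and an adjusted p under 0.05 is called higher or lower. The F statistic of each fold change gave its standard error. RPKM is CPM per kilobase of the deposited length. The script was tested on simulated counts. DESeq2 1.42.0, other scaling, no filter, no sex term, the compared groups alone, female libraries alone, the replicate number as a block and leaving out each library were alternatives, and leaving out 3 libraries that stand apart was added after seeing the data. The members, their roles, the gene lists and the tests were chosen with earlier results of these data known.

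Members past the threshold are named in order of adjusted p within roles, with the lowest and highest of the rest. Values per library are given for the pair of members with the lowest adjusted p in each of 5 roles, for Mki67, Cdk1 and Ccnb1, and for Pttg1, the latter chosen after its values were seen. Of the other lists the genes with the lowest adjusted p are named, 3 at most in each direction. Stromal and endothelial markers were also measured: 1 of 5 tested was lower in Ezh2 -/- against control and 3 of 5 were higher with V617F in Ezh2 -/-.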

Additional observations from a re-analysis of the deposited data

Results flagged for a closer look

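Among 216 sets of CPM values (36 genes in 6 groups), 7 held a library far from the rest of its group. That is fewer than the about 1 in 20 sets that chance gives, so the 7 are listed only as a description. The sets are also not independent, because the genes were measured in the same libraries. Control replicate 5 was low for 4 genes: the checkpoint kinase gene Ttk at 40.1 CPM (others 49.8 to 53.6), separase gene Espl1 at 112 CPM (others 145 to 156), Incenp at 151 CPM (others 181 to 191) and the kinetochore motor gene Cenpe at 137 CPM (others 163 to 172). Ezh2 -/- replicate 3 was high for Plk1 at 144 CPM (others 124 to 126) and for Cenpa at 258 CPM (others 216 to 223). V617F replicate 1 was low for Mki67 at 1169.8 CPM (others 1444 to 1497).

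For 8 of 36 genes (22.2%) the change with Ezh2 loss was lower with V617F, by the interaction term of edgeR's quasi-likelihood test, against 10.6% of all genes. These calls depended on the libraries used. In female libraries 0 passed, as without control replicate 1 or without Ezh2 -/- replicate 3. Of all genes, 41 of 14181, 230 of 13919 and 146 of 14060 were called lower in these settings. Without control replicate 5 and Ezh2 +/- replicates 2 and 5, 1 passed. On the log2 scale the difference was -0.55 for Ccna2, -0.58 for Aurka, -0.46 for Mad2l1, -0.50 for Cdc20, -0.49 for Birc5, -0.56 for Cenpa, -0.30 for Top2a and -0.52 for Kif20a. In each case the change with Ezh2 loss was lower in the presence of V617F.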

How the results depend on the processing

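Every log2 fold change of a called mitosis gene kept its direction in all alternatives run. Of 354 alternative counts of called genes, 289 stayed within 1.5 times the count reported and 65 did not. Counts of 0 that stayed at 0 are among the 289, so this total says little about how well the counts above 0 held. Where counts moved, the cause was not tested. Some settings hold fewer libraries, and counts over all genes moved between settings as well. Racgap1 in both Ezh2 -/- comparisons, Cdc25b in the one with V617F and Cenpa for V617F in Ezh2 -/- kept their calls throughout. For Ezh2 -/- against control (14 higher, 0 lower), 1 gene was higher in female libraries and 9 without control replicate 5 and Ezh2 +/- replicates 2 and 5, 1 was lower with DESeq2 size factors, with DESeq2 or without the sex term, and leaving out single libraries gave 9 to 20 higher and 0 to 1 lower. With V617F (2 higher, 1 lower), 4 were higher with the replicate block, 2 were lower with DESeq2 or without the sex term and 0 without the filter, in the compared groups, in females or with the replicate block, and single libraries gave 0 to 2 lower. For V617F in Ezh2 +/+ (2 higher, 0 lower), 4 were higher with DESeq2 size factors or in the compared groups alone, which also gave 1 lower, 5 with DESeq2, and 0 in females, with the replicate block or without the 3 libraries, and single libraries gave 0 to 6. In Ezh2 +/-, 1 was lower without the sex term. For V617F in Ezh2 -/- (12 lower), 20 were lower and 1 higher in the compared groups, 6 lower in females, and single libraries gave 1 to 14. For the interaction (8 lower), 17 were lower and 1 higher in the compared groups, 1 higher with DESeq2, 0 lower in females, 1 with the replicate block, 1 without the 3 libraries, and single libraries gave 0 to 17. Replicate numbers did not pair all the samples: in no comparison were all 4 same-numbered correlations above 0.1 (-0.44 to 0.80). In Ezh2 +/- against control and in V617F Ezh2 +/- against V617F Ezh2 +/+, 3 of 4 were above 0.1. The same held for V617F in Ezh2 -/-. The labels do not say what a shared number stands for, so what the block removes is not known.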
